A study of Homo sapiens with 6 samples.

Results

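The 39 genes described here are the NF-kB transcription factors and their feedback inhibitors, together with interleukins, chemokines, colony-stimulating factors, TNF and the adhesion gene ICAM1. They were picked by gene symbol from the 58735 genes of the table, and every symbol was found. RNA-seq was made from PC9-BrM3 cells, a human lung cancer line derived from PC9 through repeated intracardiac injection into immunodeficient mice. In 3 libraries the cells carried a lentiviral (LV2) shRNA against AKR1B10, an aldo-keto reductase that reduces aldehydes and ketones (BrM3-shAKR1B10), and in the other 3 they carried a negative control shRNA (BrM3-shNC), which the labels list as wild type. Both groups were grown under routine culture with no further treatment, both carried the shRNA vector, and the cells came from 1 derived line. No label says whether the libraries of a group came from separate cultures, so the p-values measure only the spread between these libraries.

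The comparison asks how the inflammatory transcripts of brain-metastatic lung cancer cells differ once AKR1B10 is silenced. NF-kB dimers, built from subunits such as RELA and NFKB1, are held in the cytoplasm by inhibitors such as NFKBIA until a receptor for TNF, IL1 or a microbial product triggers the breakdown of the inhibitor. Freed dimers bind kB sites in DNA and switch on chemokines, cytokines, adhesion molecules and their own inhibitors. Carcinoma cells often make these secreted factors themselves, and the chemokines with an ELR motif, CXCL1 to CXCL3, CXCL5, CXCL6 and CXCL8, attract neutrophils and promote vessel growth.

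Knockdown was present in each library labelled BrM3-shAKR1B10, where AKR1B10 stood at 107, 108 and 110 FPKM (fragments scaled to gene length and library size), against 772, 775 and 799 FPKM in BrM3-shNC. The mean was 13.9% of control and the log2 fold change was -2.85. Reads on genes ranged from 16964504 to 18709028 per library. At this depth 3 reads, taken as the smallest level that can be told from none, equal 0.163 to 0.177 FPKM where a gene spans 1000 bases, a limit that covers counting error only. Of 8 epithelial and lung carcinoma markers, 6 were above 1 FPKM, led by KRT19 at 932 ± 20.1 FPKM (SD, n = 3) in BrM3-shAKR1B10 beside 939 ± 60.4 FPKM in BrM3-shNC. The lung lineage factor NKX2-1 was close to absent, at 0.154 and 0.156 FPKM. None of 8 leukocyte markers had a mean of 1 FPKM over the 6 libraries, and their summed level ranged from 1.53 to 1.69 FPKM in BrM3-shAKR1B10 and from 1.93 to 2.26 FPKM in BrM3-shNC, with no reads of LYZ and at most 1 of CD3E per library. The 5 glial and neuronal markers summed to 0.0491 to 0.0710 FPKM and 0.0704 to 0.202 FPKM in these groups, with at most 1 read per library of OLIG2 and SNAP25. The fibroblast gene COL1A1 was lower in BrM3-shAKR1B10 (1.22 against 1.98 FPKM), with COL1A2, DCN and LUM at 0, and the endothelial gene CDH5 was higher (1.85 against 1.14 FPKM), while PECAM1 was at 0.272 against 0.438 FPKM without overlap, VWF at 0.126 against 0.0847 FPKM with overlap, and KDR at 0. The part of these markers in the results on the 39 genes was not tested. In bulk RNA a smaller number of cells that express a gene and less RNA per cell cannot be told apart.

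In BrM3-shAKR1B10 the ELR chemokines CXCL8 and CXCL1 and the cytokine IL11 fell, and IL18, a cytokine of the IL1 family, rose. The call of IL11 was the less firm one, held in 8 of the 14 alternative analyses that tested it, while the other 3 genes were called in all 16. The NF-kB subunits and their feedback inhibitors had log2 fold changes between -0.19 and 0.13, and none of them was called. Of the 39 genes, 16 had a mean of at least 1 FPKM over the 6 libraries and were tested on the log2(FPKM + 0.1) scale with limma. Calls needed an adjusted p below 0.05 together with a log2 fold change beyond 0.5 in either direction. On these terms 3 of the 16 were lower, where 7.45% of the 13150 genes tested were lower, and 1 was higher, where 5.83% of all genes were higher. Without BrM3-shAKR1B10 replicate 2 or BrM3-shNC replicate 1 the genes called lower were 2, as IL11 was lost. By adjusted p alone 7 of the 16 passed, 5 lower and 2 higher, against 42.5% of all genes. The 3 libraries of 1 group all lay above the 3 of the other for 9 of the 16, against 54.7% of all genes, so neither count stands far from the background. The median log2 fold change of the 16 was -0.15, and that of all genes tested was -0.01. The other 23 genes lay below the filter, and they are described by their reads.

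**Figure D1:**
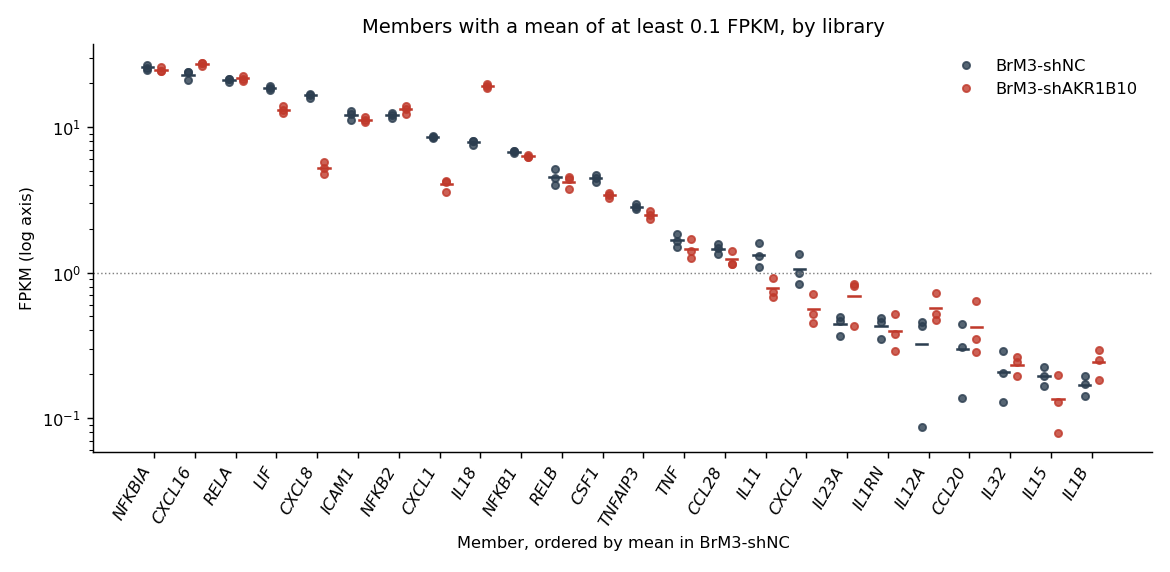
FPKM (log axis) of the 24 genes with a mean of at least 0.1 FPKM, with each library as a point and the mean of its group as a short line (n = 3 per group; dotted line at 1 FPKM). CXCL8 and CXCL1 in BrM3-shAKR1B10 lie well below the control points, IL18 lies above them, and most other pairs of groups lie close together or overlap.

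CXCL8 (ENSG00000169429, chromosome 4, 73740506 to 73743716, plus strand of GRCh38), the neutrophil attractant also called interleukin 8, stood at 5.75, 4.75 and 5.23 FPKM in BrM3-shAKR1B10 and at 16.0, 17.0 and 16.6 FPKM in BrM3-shNC. The highest knockdown library was thus far under the lowest control library, and the spread inside each group was small. The reads behind these values numbered 195 to 231 against 653 to 687. CXCL8 fell by 1.64 on the log2 scale (SE 0.072, 95% confidence interval -1.81 to -1.47, limma adjusted p = 2.1e-05), and its mean in BrM3-shAKR1B10 was 31.8% of control. No other of the 16 tested genes had as low a log2 fold change.

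CXCL1 (ENSG00000163739, chromosome 4, 73869393 to 73871242, plus strand), which binds the same receptor CXCR2, stood at 4.28, 3.59 and 4.22 FPKM in BrM3-shAKR1B10 and at 8.37, 8.49 and 8.71 FPKM in BrM3-shNC. All 3 knockdown libraries were low and the groups did not overlap. It fell by 1.07 (SE 0.074, interval -1.24 to -0.89, limma adjusted p = 9.83e-05), to 47.3% of control. The ratio of CXCL8 to CXCL1 was 1.30 ± 0.055 (SD, n = 3) in BrM3-shAKR1B10 beside 1.94 ± 0.056 in BrM3-shNC. This ratio was chosen after the values were seen, and it is given as a description.

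CXCL2, the close relative of CXCL1, had only 12 to 19 reads in BrM3-shAKR1B10 and 23 to 34 in BrM3-shNC. Its levels were 0.717, 0.517 and 0.451 FPKM in BrM3-shAKR1B10 and 0.836, 1.34 and 0.986 FPKM in BrM3-shNC, again without overlap. Its mean was below the filter of 1 FPKM, so it carried no call there. With the filter at 0.1 FPKM its log2 fold change was -0.80 (limma adjusted p = 0.0499), where 5.34% of 21762 genes were lower, and with voom on the recovered reads it was -0.87 (adjusted p = 0.0360). CXCL1, CXCL2 and CXCL3 share between 5.26% and 9.24% of their 50-base transcript words with each other, so a part of their reads could be split between them, whereas CXCL8 shares none.

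The remaining ELR chemokines gave no level that could be compared. CXCL3 had 1 to 5 reads per library, CXCL6 had 1 read in 1 library, and CXCL5 had none in any library, which allows a level of up to 0.0644 to 0.0699 FPKM. All 6 genes lie within 359 kb of chromosome 4, between 73740506 and 74099293, among 16 annotated genes. Of these 16 genes 6 had any read and 2 were tested, CXCL8 and CXCL1. PF4, PPBP and PF4V1, the platelet chemokines of the same cluster, had no reads.

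The promoters of these chemokines are shown because kB sites near the start are their textbook feature. Windows of 300 bases around the RefSeq start (250 before, 50 after, GRCh38.p14) were at hand for 28 of the 39 genes. The word GGAATTTCC, read on either strand, was chosen after the windows had been seen. It was present in 11 of the 28 (CXCL1, CXCL2, CXCL3, CXCL5, CXCL6, CXCL8, CXCL10, CXCL11, NFKB1, NFKBIA and ICAM1) and in 0.461% of 35116 windows of all genes. In all 6 ELR chemokine genes it began between 91 and 77 bases before the start. The lines below give 30 bases of each, 5′ to 3′ on the strand of the gene, with the word in capitals.
CXCL8: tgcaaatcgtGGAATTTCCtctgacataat
CXCL1: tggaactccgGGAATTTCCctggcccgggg
CXCL2: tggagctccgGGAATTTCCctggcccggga
CXCL3: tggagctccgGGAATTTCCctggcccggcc
CXCL5: atgagttcagGGAATTTCCccagcatccca
CXCL6: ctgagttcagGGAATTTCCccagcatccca

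These windows are chr4:73740468-73740497 (plus strand) for CXCL8, chr4:73869305-73869334 (plus) for CXCL1, chr4:74099253-74099282 (minus) for CXCL2, chr4:74038748-74038777 (minus) for CXCL3, chr4:73998748-73998777 (minus) for CXCL5 and chr4:73836579-73836608 (plus) for CXCL6. Those of CXCL8 and CXCL1 lie upstream of the gene in GENCODE 29 as well, and the other 4 lie inside the longer gene spans of that annotation. CXCL1 and CXCL3 match at 27 of 30 bases, CXCL5 and CXCL6 at 29 of 30, and CXCL8 and CXCL1 at 17 of 30. A longer stretch of the CXCL8 promoter, chr4:73740419-73740504 on the plus strand, also holds TGACTCA, a match to the AP-1 word TGANTCA. With any base allowed at N, that word was matched in 7.71% of all windows, and the share with TGACTCA itself was not counted.
CXCL8 upstream: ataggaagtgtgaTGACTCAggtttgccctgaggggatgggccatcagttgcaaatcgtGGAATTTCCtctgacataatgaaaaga

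The genes with the word included some that fell and some that were not called. The same word stands before the RefSeq start of NFKB1, and its reverse complement before those of NFKBIA and ICAM1, as these lines show with the word in capitals.
NFKB1: gacgtcagtgGGAATTTCCagccaggaagt
NFKBIA: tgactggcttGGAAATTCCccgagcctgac
ICAM1: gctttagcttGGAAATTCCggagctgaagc

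The windows are chr4:102501301-102501330 (plus) for NFKB1, chr14:35404811-35404840 (minus) for NFKBIA and chr19:10270924-10270953 (plus) for ICAM1. In GENCODE 29 the window of ICAM1 lies inside the gene, that of NFKB1 lies partly inside, and that of NFKBIA lies upstream. Of the 5 tested genes of the set that hold the word, CXCL8 and CXCL1 fell, and NFKB1, NFKBIA and ICAM1 were not called. Of all tested genes with the word, 5 of 48 were lower (10.4%) and 2 were higher (4.17%), beside 7.84% and 4.59% of the 8901 tested genes that have a window. The longer kB consensus, which allows several letters at some positions, was matched in 11.3% of all windows and in 16 of the 28 genes of the set, but not in CXCL8 or ICAM1. With it, 7.66% of the tested genes with a match were lower. A match describes the letters and does not show that a factor binds.

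Among the other CXC and CX3C chemokines, CXCL16 was the one with a level to compare. It is made as a membrane-bound protein that also takes up oxidised lipoprotein, and its shed form attracts lymphocytes. Its levels were 27.8, 26.2 and 27.5 FPKM in BrM3-shAKR1B10 and 20.9, 24.1 and 23.8 FPKM in BrM3-shNC. Every knockdown library was above every control library, with a log2 fold change of 0.25 (SE 0.060, limma adjusted p = 0.0173), which was under the fold threshold. Without BrM3-shAKR1B10 replicate 1 or replicate 3 its adjusted p was 0.0583 or 0.0563, which leaves IL18 as the 1 gene of the set higher by adjusted p alone. An overlap of 85 bases with MED11 on the opposite strand covers 3.04% of its exons. CXCL10 and CXCL11, attractants of T cells that interferon induces, had at most 1 and 2 reads per library, and CX3CL1 (fractalkine) had 0 or 1 read in BrM3-shAKR1B10 and 2 to 4 in BrM3-shNC.

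Of the CC chemokines, CCL28, an attractant of mucosal lymphocytes, was tested and not called, at 1.24 ± 0.153 FPKM (SD, n = 3) in BrM3-shAKR1B10 beside 1.46 ± 0.107 FPKM in BrM3-shNC (log2 fold change -0.23, interval -0.56 to 0.11, adjusted p = 0.232). CCL20, the ligand of CCR6, had 4 to 18 reads per library with overlapping groups. CCL5 had 1 to 4 reads. CCL2, the main attractant of monocytes, had none in any library, which allows up to 0.0823 to 0.0893 FPKM.

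IL18 (ENSG00000150782, chromosome 11, 112143251 to 112164117, minus strand), stored as a precursor in epithelial cells and released as an active cytokine after cleavage by caspase-1, moved the other way. Its levels were 19.9, 18.7 and 19.3 FPKM in BrM3-shAKR1B10 and 8.02, 7.58 and 8.07 FPKM in BrM3-shNC. The lowest knockdown library lay well above the highest control library, on 886 to 922 reads against 337 to 387. IL18 rose by 1.28 on the log2 scale (SE 0.043, interval 1.18 to 1.38, limma adjusted p = 1.04e-05), or 2.44-fold, and no other tested gene of the 39 was higher by as much.

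The other genes of the IL1 family were at low levels. IL1B had 8 to 16 reads per library and IL1A had 0 to 4. IL1RN, the receptor antagonist of IL1, had 17 to 30 reads, at 0.397 ± 0.117 FPKM (SD, n = 3) in BrM3-shAKR1B10 beside 0.431 ± 0.0711 FPKM in BrM3-shNC. Groups overlapped for all of them, and IL33 had no reads, which allows up to 0.0503 to 0.0545 FPKM. The IL18 receptor chain IL18R1 was at 0.563 ± 0.0828 and 0.448 ± 0.143 FPKM, and its partner IL18RAP had at most 1 read.

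IL11 (ENSG00000095752, chromosome 19, 55364389 to 55370463, minus strand) and LIF (ENSG00000128342, chromosome 22, 30240447 to 30246851, minus strand) are cytokines of the IL6 family and signal through the shared receptor chain IL6ST. IL11 stood at 0.911, 0.684 and 0.739 FPKM in BrM3-shAKR1B10 and at 1.31, 1.08 and 1.60 FPKM in BrM3-shNC. The groups did not overlap but the control libraries were spread, on 49 to 78 reads against 33 to 43. IL11 fell by 0.70 (SE 0.21, interval -1.20 to -0.19, limma adjusted p = 0.0359), to 58.5% of control. This call was lost when BrM3-shAKR1B10 replicate 2 (adjusted p = 0.0934), BrM3-shAKR1B10 replicate 3 (0.0861) or BrM3-shNC replicate 1 (0.0865) was left out, and without BrM3-shNC replicate 3 the gene fell below the filter.

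LIF was the secreted gene of this family with the highest level, at 13.1, 12.4 and 13.99 FPKM in BrM3-shAKR1B10 and 18.5, 19.2 and 18.1 FPKM in BrM3-shNC. Each knockdown library was lower than each control library. Its log2 fold change of -0.50 (SE 0.052, interval -0.62 to -0.37, limma adjusted p = 0.000516) was just short of the fold threshold, and it was called without BrM3-shAKR1B10 replicate 3 (-0.54) or without BrM3-shNC replicate 3 (-0.52). IL6 itself had at most 2 reads per library. Of the receptors of IL11 and LIF none was called. IL6ST was at 7.21 ± 0.149 FPKM (SD, n = 3) in BrM3-shAKR1B10 beside 7.25 ± 0.483 FPKM in BrM3-shNC, IL11RA was at 1.12 ± 0.0816 and 1.17 ± 0.159 FPKM, and LIFR, at 0.440 ± 0.0859 and 0.432 ± 0.0705 FPKM, was under the filter.

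Among the other interleukins no gene reached 1 FPKM. IL12A, a subunit of interleukin 12, was at 0.472, 0.516 and 0.719 FPKM in BrM3-shAKR1B10 and at 0.454, 0.0870 and 0.430 FPKM in BrM3-shNC. The groups were apart by a narrow margin, and BrM3-shNC replicate 2, with 3 reads, was low beside the other control libraries with 16 and 17. With the filter at 0.1 FPKM its log2 fold change was 0.80 with an interval of -0.31 to 1.91 (limma adjusted p = 0.269).

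IL23A, a subunit of interleukin 23, was at 0.692 ± 0.228 and 0.442 ± 0.0675 FPKM (SD, n = 3 per group), and IL15, a growth factor of natural killer cells, was at 0.135 ± 0.0594 and 0.196 ± 0.0297 FPKM, in BrM3-shAKR1B10 and BrM3-shNC in that order. IL32 had 7 to 17 reads per library. IL7, a growth factor of lymphocytes, and IL24 had at most 2 and 1. Groups overlapped for each of these 5 genes. With the filter at 0.1 FPKM, 8 more of the 39 genes were tested, and CXCL2 was the one called.

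CSF1, the growth factor of macrophages, stood at 3.44, 3.23 and 3.53 FPKM in BrM3-shAKR1B10 and at 4.44, 4.67 and 4.22 FPKM in BrM3-shNC. The knockdown libraries were all lower, and the log2 fold change was -0.38 (SE 0.063, interval -0.53 to -0.23, limma adjusted p = 0.00375), inside the fold threshold. TNF, a cytokine that turns NF-kB on and is also its target, was low and overlapped between groups, at 1.69, 1.26 and 1.41 FPKM against 1.66, 1.83 and 1.504 FPKM (-0.19, interval -0.54 to 0.16, adjusted p = 0.330). CSF2 had no reads, which for this short gene allows up to 0.208 to 0.225 FPKM, and CSF3 had 1 read in 1 library.

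**Figure D2:**
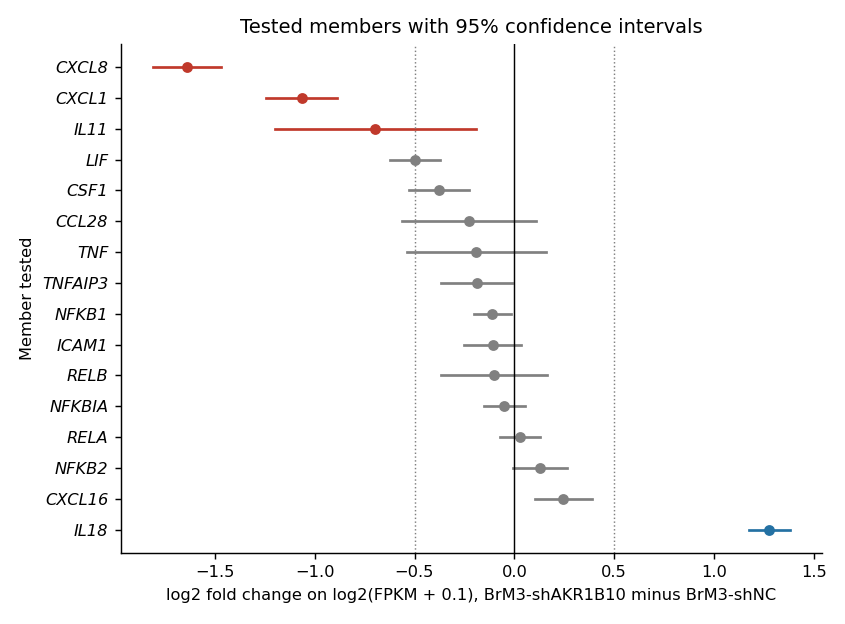
Log2 fold change of the 16 tested genes on the log2(FPKM + 0.1) scale, BrM3-shAKR1B10 minus BrM3-shNC, with 95% confidence intervals from limma (3 against 3 libraries; red, called lower; blue, called higher; grey, not called; dotted lines at -0.5 and 0.5). CXCL8, at -1.64, and IL18, at 1.28, lie at opposite ends, and the NF-kB factors lie close to 0.

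The NF-kB factors themselves were expressed at moderate levels and none was called. RELA, the main activating subunit, stood at 21.4, 20.8 and 22.5 FPKM in BrM3-shAKR1B10 and at 20.5, 21.5 and 21.5 FPKM in BrM3-shNC. The groups overlapped and the log2 fold change was 0.03 (interval -0.07 to 0.13, limma adjusted p = 0.603), with a sign that turned when BrM3-shAKR1B10 replicate 3 was left out. NFKB1, the precursor of p50, was at 6.28 ± 0.0877 FPKM (SD, n = 3) in BrM3-shAKR1B10 beside 6.79 ± 0.112 FPKM in BrM3-shNC (-0.11, interval -0.20 to -0.02, adjusted p = 0.0603).

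NFKB2 and RELB act in the alternative pathway. NFKB2, the precursor of p52, was at 13.2 ± 0.809 and 12.0 ± 0.482 FPKM (0.13, interval -0.00 to 0.27, limma adjusted p = 0.108), and RELB was at 4.21 ± 0.418 and 4.53 ± 0.572 FPKM (-0.10, interval -0.37 to 0.16, adjusted p = 0.497). With these intervals a change of the RNA beyond 0.5 on the log2 scale lay outside the range for all 4 subunits. The activity of the proteins was not measured by these data.

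The feedback inhibitors and ICAM1 are direct NF-kB targets. NFKBIA, which holds RELA in the cytoplasm, stood at 24.5, 24.1 and 25.8 FPKM in BrM3-shAKR1B10 and at 26.7, 24.8 and 25.6 FPKM in BrM3-shNC, with overlapping groups (-0.05, interval -0.15 to 0.05, limma adjusted p = 0.387). TNFAIP3, a ubiquitin-editing enzyme that ends the signal, was at 2.48 ± 0.146 and 2.84 ± 0.119 FPKM (SD, n = 3), lower in all 3 knockdown libraries but not called (-0.19, interval -0.37 to -0.01, adjusted p = 0.0815). ICAM1, the adhesion molecule that leukocyte integrins bind, was at 11.2 ± 0.400 and 12.1 ± 0.829 FPKM with overlapping groups (-0.11, interval -0.25 to 0.03, adjusted p = 0.182). Of its exon bases 22.0% are shared with an antisense gene that had 8 reads in all.

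Since FPKM is per length, the levels of the 32 secreted genes can be added. Their sum was 79.3 ± 3.34 FPKM (SD, n = 3) in BrM3-shAKR1B10 beside 86.8 ± 2.66 FPKM in BrM3-shNC, or 91.4% of control. CXCL8 made up 19.0% of the sum in BrM3-shNC and 6.60% in BrM3-shAKR1B10. The share of CXCL1 was 9.82% and 5.07%, and that of LIF 21.4% and 16.6%. IL18 went from 9.10% to 24.3% and CXCL16 from 26.4% to 34.3%. The ratio of IL18 to CXCL8 was 0.479 ± 0.0291 in BrM3-shNC and 3.69 ± 0.239 in BrM3-shAKR1B10. It pairs the gene that rose most with the gene that fell most, so it restates those changes and was not tested.

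**Figure D3:**
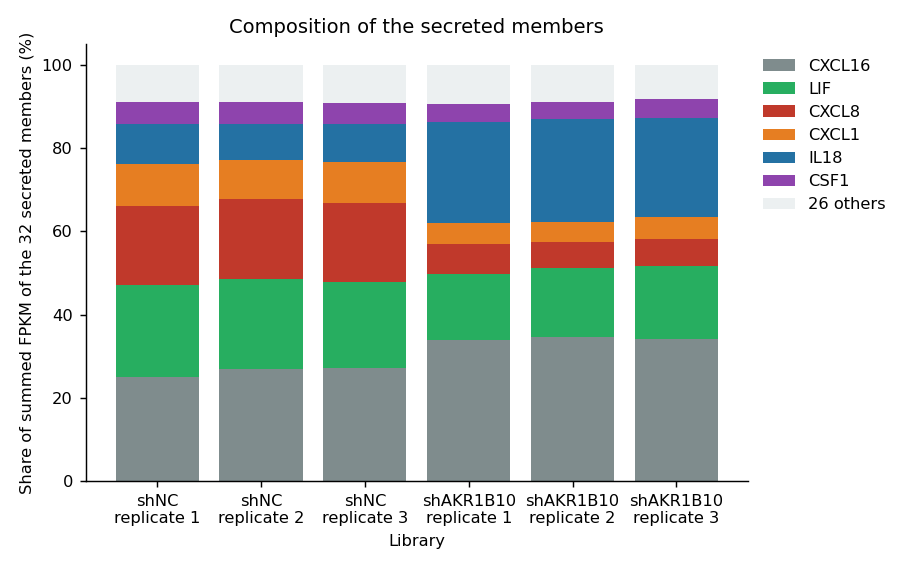
Share (%) of each gene in the summed FPKM of the 32 secreted genes, 1 bar per library (3 per group). CXCL8 and CXCL1 take a smaller part of each BrM3-shAKR1B10 bar and IL18 a larger one, while the 26 genes shown together stay a thin band in all 6 libraries.

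The rest of the pathway was read from 218 genes in 5 lists, of which 99 were tested. Of these, 8 were lower (8.08%) and 12 were higher (12.1%), beside 7.45% and 5.83% of all genes tested. The median log2 fold change was -0.01, as it was for all genes. In the list of NF-kB signaling genes 33 of 36 were tested, 2 fell (6.06%) and 1 rose (3.03%), with a median of -0.11. CARD10, a scaffold that links receptors to NF-kB, fell by 0.78 (limma adjusted p = 0.000245), from 16.8 ± 0.842 FPKM (SD, n = 3) in BrM3-shNC to 9.77 ± 0.749 FPKM in BrM3-shAKR1B10. Its partner MALT1, a paracaspase, fell by 0.64 (adjusted p = 0.00327). IRAK4, a kinase that acts just after the IL1, IL18 and Toll-like receptors, rose by 0.52 (adjusted p = 0.0117). IRAK2, IRAK1 and MYD88 of the same list were lower by 0.44, 0.33 and 0.19, inside the fold threshold (adjusted p = 0.00128, 0.00494 and 0.0410). By adjusted p alone 15 of the 33 passed, 10 lower and 5 higher, beside 42.5% of all genes. Among 16 genes that restrain NF-kB, 12 were tested and none was called, with a median of 0.00.

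The receptor list had 19 of 56 genes tested, of which 2 fell (10.5%) and 5 rose (26.3%), beside 7.45% and 5.83% of all genes, with a median of 0.02. The Toll-like receptors TLR1 and TLR6, which sense bacterial lipopeptides, fell by 1.09 and 0.64 (limma adjusted p = 0.00133 and 0.000482). The annotated span of TLR6 lies inside that of TLR1 on the same strand, and reads shared between them were not checked. The scavenging receptors ACKR3, for CXCL12, and ACKR2, for CC chemokines, rose by 0.90 and 0.53 (adjusted p = 5.62e-05 and 0.00177). CSF2RA rose by 0.77, IL1R1 by 0.56 and IL6R by 0.56 (adjusted p = 0.00208, 0.00339 and 0.0333). Receptors for the 2 chemokines that fell were not found at a measurable level, as CXCR2 had no reads and CXCR1 at most 1 per library. CSF1R, the receptor of CSF1, was at 0.425 ± 0.0861 and 0.797 ± 0.0953 FPKM (SD, n = 3 per group), under the filter.

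Other known NF-kB targets went both ways. Of 42 genes 27 were tested, 3 were lower (11.1%) and 5 were higher (18.5%), beside 7.45% and 5.83% of all genes, with a median of 0.03. EGR1, an immediate-early transcription factor, fell by 1.55 (limma adjusted p = 4.84e-05), IER3, a stress-response gene, by 0.91 (1.44e-05) and TAP1, the peptide transporter of antigen presentation, by 0.64 (0.000550). OLR1, a receptor of oxidised lipoprotein, rose by 1.13 (9.66e-05), tissue factor F3 by 0.67 (0.000119), BCL2L1, which protects from apoptosis, by 0.65 (2.97e-05), the proteoglycan SDC4 by 0.57 (6.65e-05) and the repressor BCL6 by 0.51 (0.00166). Of 68 further cytokines and chemokines 8 were tested, with 1 lower and 1 higher (12.5% each) and a median of -0.13. HMGB1, a chromatin protein that acts as an alarm signal when released, fell by 0.83 (3.02e-05), and CTF1, an IL6 family cytokine, rose by 0.58 (0.00376).

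**Figure D4:**
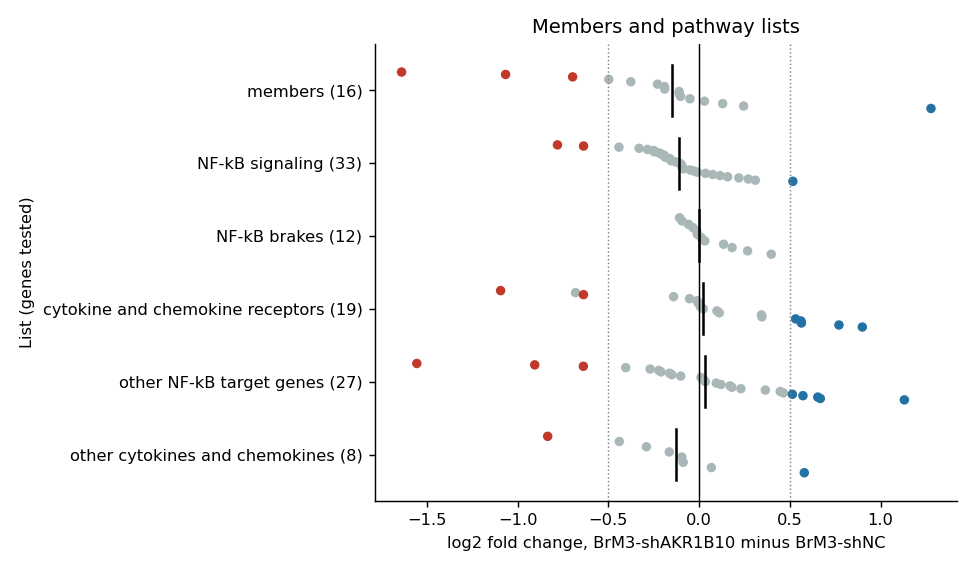
Log2 fold change (BrM3-shAKR1B10 minus BrM3-shNC) of each tested gene in the set described here and in the 5 pathway lists, with the number tested in brackets (red, called lower; blue, called higher; grey, not called; vertical bar, median of the list; dotted lines at -0.5 and 0.5). The medians lie between -0.15 and 0.03, and calls fall on both sides in every list except that of the genes that restrain NF-kB, which has none.

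CXCL8, CXCL1 and IL18 were called in each of the 16 alternative analyses that changed the processing or left out 1 library, with log2 fold changes of -1.71 to -1.49, -1.11 to -0.92 and 1.19 to 1.32. IL11 was tested in 14 of them and called in 8. LIF was called in 3 of 16, while CSF1 and CXCL16 were called in none.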

How the data were processed

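The data were RNA-seq of poly-A selected RNA from 6 PC9-BrM3 libraries, 3 per group, grouped and numbered by their labels. FPKM values of 58735 genes, with gene lengths, were deposited by the authors in 1 table. The submitters' processing notes name HISAT2 2.0.5 and featureCounts 1.5.0-p3, while the genome build and the use of strand in counting were not given in the sources used here. All 58735 identifiers, positions and strands match GENCODE 29 (GRCh38), which gave the coordinates. Without stated strand, reads of overlapping antisense genes cannot be told apart.

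Reads were recovered from FPKM and length, and 100% of values came out whole within 0.01 reads. They served depth, floors and an alternative fit with voom (TMM scaling, mean of at least 10 reads). The library size behind the FPKM was above the reads on genes in every BrM3-shAKR1B10 library and below them in every BrM3-shNC library. In replicate 1 it was 17669819 against 17253067 reads and 18350584 against 18709028 reads. Under TPM scaling, in which that size cancels, the log2 fold changes of CXCL8, CXCL1 and IL18 were -1.62, -1.04 and 1.32. The main test was limma 3.58.1 in R 4.3.3 (lmFit, eBayes with trend) on log2(FPKM + 0.1) for genes with a mean of at least 1 FPKM, with Benjamini-Hochberg adjustment over all 13150 genes tested. The pseudocount makes fold changes of low genes smaller than they are. The script was tested on simulated data.

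Named genes were the 39, AKR1B10, up to 5 called genes in each direction of each pathway list, the highest marker and those under 3 reads, paralogs, overlapping genes, and receptors of the genes that moved, added after their values were seen. COL1A1, CDH5, PECAM1, VWF, NKX2-1, IRAK1, IRAK2, MYD88 and the platelet chemokines were also added then. The 39 genes and all lists were chosen with earlier results of these data known. SOD2 had 2 rows, of which the one with reads was used. Sequences and starts are from RefSeq (GRCh38.p14), with windows for 28 of the 39 genes. No window was at hand for CXCL16, CX3CL1, CCL2, CCL5, IL7, IL15, IL18, LIF, CSF1, CSF3 and RELB. Alternatives covered pseudocount, filters, TPM scaling, quantile normalization, eBayes without trend, voom, thresholds, a replicate block and leaving out each library.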

Additional observations from a re-analysis of the deposited data

How the results depend on the processing

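CXCL8, CXCL1 and IL18 kept their call and direction under every alternative run. Among all genes, those called lower numbered 532 with a filter of 5 FPKM, 205 with a log2 fold change above 1 and 3044 with no threshold on it, against 980. Those called higher numbered 497 with a pseudocount of 1, 290 with a filter of 5 FPKM, 1212 with voom, 168 with a log2 fold change above 1 and 2548 with no threshold, against 766. With TPM scaling 1012 genes were lower and 1138 higher, so higher calls outnumbered lower ones there. Leaving out 1 library gave 940 to 977 lower and 649 to 765 higher genes. Of the 39 genes, 5 were lower and 2 higher with no threshold on the log2 fold change, against 3 and 1, and 2 to 3 were lower without 1 library. Pathway genes called lower numbered 4 with a filter of 5 FPKM, 15 with voom, 2 with a log2 fold change above 1 and 21 with no threshold, against 8. Those called higher numbered 7 with a pseudocount of 1, 6 with a filter of 5 FPKM, 1 with a log2 fold change above 1 and 24 with no threshold, against 12, and 9 to 11 without 1 library. Changes with the filter or the threshold follow from fewer or more genes passing them, and for the pseudocount and voom the cause was not tested. IL11 was not called with a pseudocount of 1 (-0.39, adjusted p = 0.0309), with no filter on low values (0.0621) or without any of 3 libraries, and its adjusted p ranged from 0.00953 to 0.0934 over the alternatives. LIF was called with a pseudocount of 0.01 (-0.50). RELA changed sign without BrM3-shAKR1B10 replicate 3, with log2 fold changes of -0.0014 to 0.055 when 1 library was left out.

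Same-numbered libraries had correlations of -0.02, 0.00 and 0.00 in their deviations from the group means, and differently numbered ones -0.04 to 0.04. These values gave no sign of pairing by replicate number, but they cannot show that the libraries were not prepared in pairs. With the replicate block 967 genes were lower and 719 higher, and 2 of the 39 were lower, as IL11 had an adjusted p of 0.0597. Libraries of a group differed by more than sampling noise (chi-square per gene 2.35 to 4.97), so no pair was treated as 1 library deposited again, which does not show that they came from separate cultures. Depth limits the 23 untested genes, of which 11 had at most 3 reads in every library.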
